A study of Rattus norvegicus with 14 samples.

Results

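Mt2A and Mt3, 2 metallothionein genes, were followed through the fetal rat testis and ovary. They were found as all probe sets whose platform gene symbol was Mt2A or Mt3. Affymetrix arrays read a transcript with several short probes that are summarised as a probe set. The rule found 1 probe set for each gene, so 2 of 15866 tested probe sets and 2 of 10411 named genes. RNA from fetal rat gonads had been hybridised to 14 single-channel Affymetrix arrays in 7 groups of 2 arrays: E13 testis kept for 3 days in organ culture, fresh testis at E13, E14 and E16 (days of embryonic development), and fresh ovary at E13, E14 and E16. Each array carried an independent pool of 20 to 40 gonads; strain and genotype are not given in the labels. The cultured testes lay on filters over a medium that held insulin and transferrin at 10 µg/ml each and albumin at 0.01%, renewed on day 2. Arrays give no read depth, and with 2 arrays a group every value has limited precision.

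Metallothioneins are small proteins rich in cysteine that bind zinc and copper. They buffer free zinc, take up toxic metals such as cadmium and react with oxidants. Mt1 and Mt2A are switched on by zinc through the factor MTF-1, which binds short DNA elements called metal response elements, and in many tissues also by glucocorticoids and oxidants. Mt2A is broadly expressed, while Mt3 is best known from the brain, where it was described as a growth inhibitory factor and responds little to metals.

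The promoters are shown because metal response elements are the best known control of this family. They come from the RefSeq table of build GRCr8 and run from 250 bases before to 50 bases after each gene's start, both on the minus strand, chr19:10838659-10838958 for Mt2A and chr19:10856031-10856330 for Mt3. Capitals mark matches, on either strand, to the core of the metal response element, searched as TGCACNC and TGCGCNC.
Mt2A: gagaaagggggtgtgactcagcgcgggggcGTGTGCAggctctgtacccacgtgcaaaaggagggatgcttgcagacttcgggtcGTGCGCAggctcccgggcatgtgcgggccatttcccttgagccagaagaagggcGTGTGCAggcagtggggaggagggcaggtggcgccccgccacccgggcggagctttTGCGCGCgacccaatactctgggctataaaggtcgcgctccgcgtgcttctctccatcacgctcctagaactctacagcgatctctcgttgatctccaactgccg
Mt3: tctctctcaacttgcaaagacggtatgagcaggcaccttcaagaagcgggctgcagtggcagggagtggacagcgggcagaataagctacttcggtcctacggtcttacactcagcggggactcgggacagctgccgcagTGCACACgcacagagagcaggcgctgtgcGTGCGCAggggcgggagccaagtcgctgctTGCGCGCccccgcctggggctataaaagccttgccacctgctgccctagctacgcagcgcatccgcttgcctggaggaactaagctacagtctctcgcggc
The Mt2A window held 4 matches, which began at bases -220, -165, -111 and -55 from the gene's start, and the Mt3 window held 3, which began at -110, -81 and -51. Of 33469 rat promoters of this length, 1.68% held at least 3 such matches and 0.439% at least 4. Both windows also had TATAAA at -31 to -26, a run found on the gene's strand in 8.8% of promoters. The Mt2A window had 1 match to TGACNNNGC, the core of the antioxidant response element, which 12.1% of promoters held on either strand. No match to the full palindrome of the glucocorticoid response element was in either window, and 0.0149% of promoters held one. These are matches of letters and no measure of binding.

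Some arrays went against their labels or stood apart. Sry, the switch for testis formation on the Y chromosome, had intensities of 162.8 and 184.9 in fresh E13 testis and 13.1 to 28.7 in the ovary arrays, and Amh, the hormone of Sertoli cells, read 477 to 1093 in E14, E16 and cultured testis and 9.6 to 38.5 in ovary. Xist, the RNA of the inactive X chromosome, was high in 2 testis arrays, at 151 in cultured replicate 1 and 269 in E14 replicate 1. In E13 testis replicate 1 it read 36.2, above the remaining testis arrays (1.5 to 4.8) but far below the E13 ovary arrays (602.6 and 662.2). It was low in E16 ovary replicate 2, at 12.8. Results are therefore also given without these 4 arrays. The 3′ to 5′ ratio of the actin controls, which grows as RNA degrades, was 2.97 in cultured replicate 2 and 3.34 in E16 ovary replicate 1, against 1.47 to 2.13 in the others. The prefix of the chip labels sets the arrays into 3 chip series that hold different mixes of groups, so differences are also given within a series. In whole gonads, fewer cells of a type and less RNA per cell cannot be told apart.

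Mt2A overlapped between the sexes at E13 and was then lower at each later age in testis and higher in ovary. In testis it read 501.6 and 566 at E13, 337.2 and 336.4 at E14, and 131 and 206.3 at E16. In ovary it read 560.9 and 623.1 at E13, 818.7 and 831.5 at E14, and 1468.1 and 1391.6 at E16. Each age lay wholly below the one before in testis and wholly above it in ovary, and only at E13 did the sexes overlap. How many of all probe sets separate in this way was not counted. In cultured E13 testis Mt2A read 206.6 and 126.7, below every fresh E13 and E14 array and across the range of fresh E16 testis.

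Ordered by mean level, the 7 groups ran from cultured E13 testis (167 ± 56.5, SD, n = 2) and E16 testis (169 ± 53.2), which overlapped, through E14 testis (337 ± 0.57), to E13 testis (534 ± 45.5) and E13 ovary (592 ± 44), which overlapped too. Above them stood E14 ovary (825 ± 9.05) and E16 ovary (1430 ± 54.1). Apart from those pairs, no neighbours in this order shared any value. Groups of 2 arrays ordered by their own means can separate without a change.

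**Figure D1:**
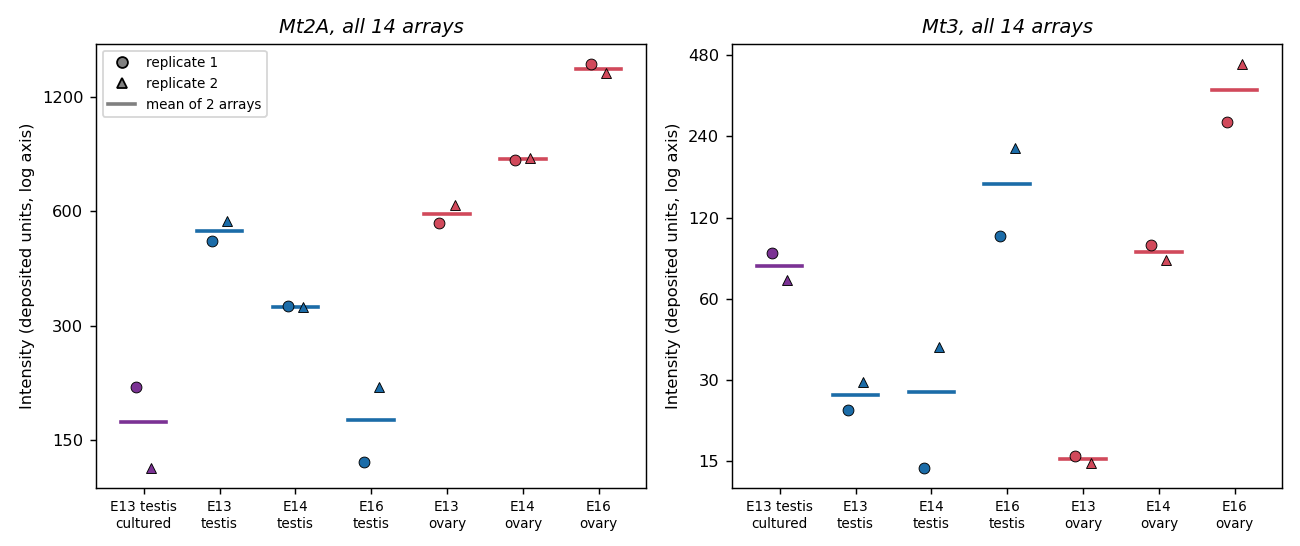
Intensity of the Mt2A and Mt3 probe sets in each of the 14 arrays (log axis, deposited units), by group; circles and triangles are replicates 1 and 2 and the bar is their mean. Mt2A steps down with age in testis, to a mean of 169 at E16, and up in ovary, to 1430, while Mt3 ends higher in both, at 160 and 358.

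Mt2A had been chosen by its testis and ovary difference at E16, over the 3 ages together, and in its change between E13 and E16, so these values are described without a test. What chose Mt3 beside it is not stated. Its testis and ovary differences, and the ovary differences that hold E16, are described in the same way. E16 minus E13 testis was tested for Mt3, and whether its choice rested on those arrays is not known. For Mt2A the ratio of mean intensities, testis over ovary, was 0.902 at E13, 0.408 at E14 and 0.118 at E16. On the log2(intensity + 16) scale, on which all differences below are given, testis minus ovary was -0.15, -1.25 and -3.00. In the limma fit over all probe sets, 0.0126% of them passed an adjusted p of 0.05 at E13, 0.139% at E14 and 1.74% at E16. Within chip series 1, which held 1 array of each sex, the difference was -1.27 at E14 (336.4 in testis and 831.5 in ovary) and -2.66 at E16 (206.3 in testis and 1391.6 in ovary). Without the 4 arrays named above it was -1.25 at E14 and -3.04 at E16. At E16 this leaves only ovary replicate 1, the array with an actin ratio of 3.34. The same array is the only E16 ovary array of chip series 3. In ovary the differences that contain E16, also described only, were 0.78 for E16 minus E14 and 1.25 for E16 minus E13, with 1.29 for the second within chip series 3; 0% and 0.889% of probe sets passed in these. The other step, E14 minus E13 in ovary, was 0.47 and did not pass (adjusted p = 1 by limma). Its arrays too belong to the values by which Mt2A was chosen, so its p-value is not independent of that choice.

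Within the testis, Mt2A was lower at each later age. The known change of the sex difference between E13 and E16, by which Mt2A was chosen, contains the E16 and E13 testis arrays, so this difference too is described only. Mt2A stood at 169 ± 53.2 (SD, n = 2) in E16 testis, against 534 ± 45.5 in E13 testis, a difference of -1.60, in a comparison where 0.945% of probe sets passed. Within chip series 1 the values were 206.3 in E16 and 566 in E13 testis, a difference of -1.39. The single steps did not pass: E14 minus E13 was -0.64 (adjusted p = 0.586 by limma) and E16 minus E14 was -0.97 (adjusted p = 0.388), in comparisons where 0.0693% and 0.12% of probe sets passed.

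Mt2A was also lower after organ culture. The E13 testes kept for 3 days gave 167 ± 56.5 (SD, n = 2), against 534 ± 45.5 in fresh E13 testis, a difference of -1.62 with a standard error of 0.24 (adjusted p = 0.00785 by limma). This comparison shares its fresh arrays with the E16 minus E13 comparison, so they belong to the values by which Mt2A was chosen. Its p-value and the rank that follows are therefore not independent of that choice. Nor are the p-values against fresh E14 and E16 testis below. In cultured minus fresh E13 testis 1.39% of probe sets passed, 0.334% as lower, and Mt2A ranked 10 by size among these 53. Against fresh E16 testis, the difference in cultured testis was -0.02, with a 95% interval of -0.54 to 0.50 (adjusted p = 1), and against fresh E14 testis it was -0.99 (adjusted p = 0.18); 0.0945% of probe sets passed against E16 and 0.277% against E14. Within chip series 1, cultured and fresh E13 testis read 126.7 and 566, each from replicate 2 alone. The same pair of arrays is what remains without the 4 arrays with discordant Xist, so these are not separate checks. The call was lost without cultured replicate 2, the array with an actin ratio of 2.97 (-1.30, adjusted p = 0.0801), without fresh E13 replicate 2 (-1.54, adjusted p = 0.0701), and without the 4 arrays with discordant Xist (-2.03, adjusted p = 0.11); the last sets 1 cultured array against 1 fresh one, with the spread taken from other groups.

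Mt3 was at its highest at E16 in both sexes. In testis it read 23.2 and 29.4 at E13, 14.2 and 39.8 at E14, and 102.8 and 217.8 at E16. In ovary it read 15.7 and 14.8 at E13, 95.3 and 83.6 at E14, and 270.9 and 445 at E16. The E14 ovary arrays were already apart from E13 ovary, whereas E14 testis spanned the E13 testis values. Cultured E13 testis read 88.6 and 70.6, above the fresh E13 and E14 testis arrays and below the E16 ones. The lowest readings are of the size of the offset, so the differences are smaller than those of the intensities without it. No detection calls came with these readings, so the true size of the change is not known.

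By mean level Mt3 ran from E13 ovary (15.2 ± 0.64, SD, n = 2) to E13 testis (26.3 ± 4.38) and E14 testis (27 ± 18.1), which overlapped. Then came cultured E13 testis (79.6 ± 12.7) and E14 ovary (89.5 ± 8.27), which overlapped as well, and at the top E16 testis (160 ± 81.3) and E16 ovary (358 ± 123). The E16 groups were separate, but by less than the spread within each: the highest E16 testis array read 217.8 and the lowest E16 ovary array 270.9.

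In testis, Mt3 rose to 160 ± 81.3 (SD, n = 2) at E16, against 26.3 ± 4.38 at E13, a difference of 1.98 with a standard error of 0.35 (adjusted p = 0.0265 by limma). In this comparison 0.706% of probe sets passed as higher. The call was lost with an offset of 1 (adjusted p = 0.0579) or 64 (adjusted p = 0.0537) in place of 16. The difference was 2.37 within chip series 1. The call was also lost without either E13 testis array, E16 testis replicate 2 (1.49) or either E13 ovary array, each of which leaves 1 array in a group. It was lost too when the 4 arrays with discordant Xist were left out (1.88), which leaves 1 array in E13 testis. The step from E14 to E16 in testis was 2.02 and did not pass (adjusted p = 0.0927), but it did with chip series as a block (adjusted p = 0.0459). E14 minus E13 in testis was -0.04 (adjusted p = 0.992), and its sign turned when chip series was a block (0.10).

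Cultured minus fresh E13 testis was 1.17 for Mt3 and did not pass (adjusted p = 0.168 by limma). The groups did not overlap, which groups this small can show without a change. Against fresh E14 testis the difference in cultured testis was 1.21 (adjusted p = 0.278) and against fresh E16 testis it was -0.81 (adjusted p = 0.737), with a 95% interval of -1.59 to -0.03 that is not adjusted for the number of probe sets. In ovary, E14 minus E13 was 1.75 (adjusted p = 0.373). In that comparison 0 probe sets passed by limma, with 679 at an unadjusted p under 0.05.

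As for Mt2A, the testis and ovary differences of Mt3 are described only. Testis minus ovary was 0.43 at E13, -1.36 at E14 and -1.13 at E16, so Mt3 read higher in testis at E13 and higher in ovary at both later ages. Within chip series 1 the difference was -0.84 at E14 (39.8 in testis and 83.6 in ovary) and -0.98 at E16 (217.8 in testis and 445 in ovary). Leaving out the 4 arrays with discordant Xist gave -0.92 at E14 and -0.78 at E16. E16 minus E13 in ovary was 3.54, or 3.20 within chip series 3. For E16 ovary, the -0.78 and the 3.20 rest on replicate 1 alone, the array with an actin ratio of 3.34.

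**Figure D2:**
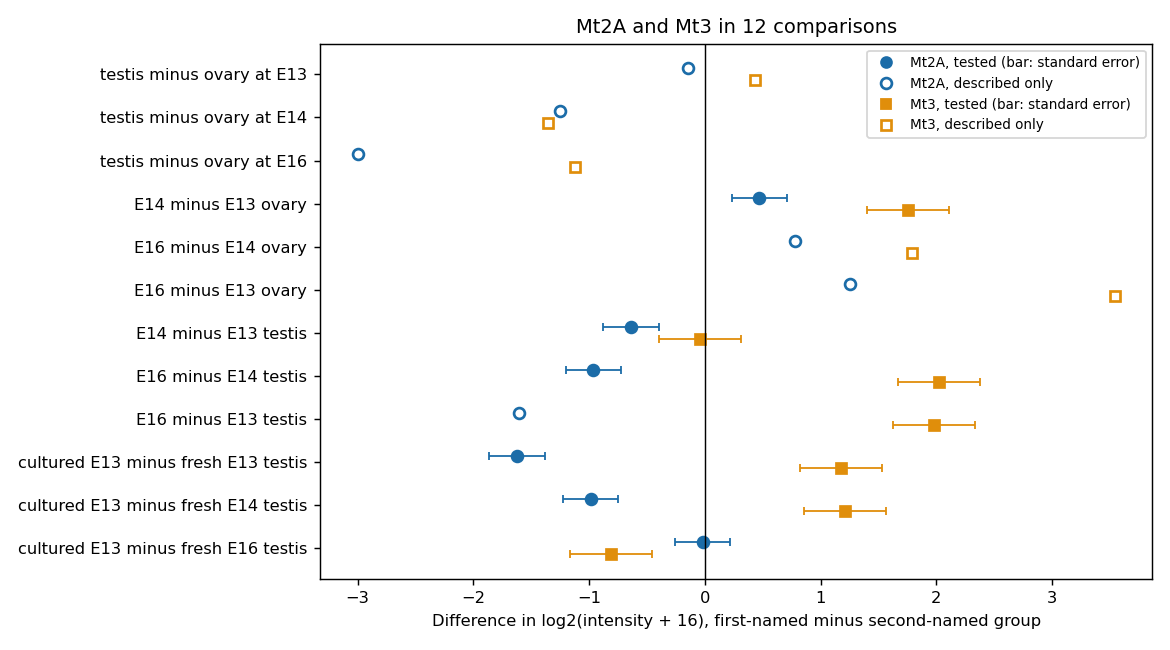
Differences of Mt2A (circles) and Mt3 (squares) in 12 comparisons, in log2(intensity + 16), first-named minus second-named group; filled symbols were tested and carry a bar of 1 standard error, open symbols are described only. Mt2A lies left of 0 in E16 minus E13 testis (-1.60) and right of it in ovary (1.25), while Mt3 lies right of 0 in both (1.98 and 3.54).

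Of the other metallothioneins only Mt1, the closest relative of Mt2A and its neighbour on the chromosome, had a probe set, and it passed in 0 of the 12 comparisons by limma. In these comparisons 0% to 1.74% of all probe sets passed. Its intensity lay between 1.9 and 33 over the 14 arrays. E16 testis read 3.2 and 3.8, and E16 ovary 2.7 and 33, so the ovary arrays enclosed those of the testis (-0.64, adjusted p = 0.612). E16 minus E13 testis was -0.86 (adjusted p = 0.563) and cultured minus fresh E13 testis -0.72 (adjusted p = 0.591), the same signs as for Mt2A but with a standard error of 0.46. Both rest on E13 testis arrays that read 32.9 and 9.5. The sign was opposite to that of Mt2A in testis minus ovary at E13 (0.86). It was also opposite in cultured minus fresh E14 testis (0.06) and cultured minus fresh E16 testis (0.14). Family members are close in sequence and can share probes, so that values are uncertain between copies.

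Genes of metal handling, oxidative stress and glucocorticoid response were counted in 3 comparisons: testis against ovary at E16, where 1.74% of all probe sets passed, E16 against E13 testis (0.945%) and cultured against fresh E13 testis (1.39%). Of 18 measured genes of zinc sensing and transport, 1 passed in testis against ovary at E16, 0 in E16 against E13 testis and 0 in cultured against fresh E13 testis, with median differences of -0.03, 0.12 and 0.09; the median over all probe sets was 0.05, -0.02 and -0.01. The gene that passed was Slc30a1, which exports zinc from the cell and is itself a known target of MTF-1. It stood at 43.7 ± 2.97 in E16 testis and 16.6 ± 0.28 in E16 ovary (SD, n = 2), the ovary value being close to the offset. The difference was 0.87 (adjusted p = 0.0189 by limma), the direction opposite to that of Mt2A. Slc30a1 differed by 0.08 in E16 minus E13 testis (adjusted p = 0.927) and by -0.38 in cultured minus fresh E13 testis (adjusted p = 0.359). Whether zinc or MTF-1 acted on Mt2A was not tested. The zinc importers with the largest differences did not pass: Slc39a14 differed by 0.51 in E16 minus E13 testis (adjusted p = 0.496) and Slc39a1 by 0.82 in cultured minus fresh E13 testis (adjusted p = 0.0782). For zinc 0 genes were called by limma in the last 2 comparisons, in which 1704 and 1958 of all probe sets had an unadjusted p under 0.05.

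Of 12 measured copper genes 0 passed by limma in any of these 3 comparisons. Cp, the plasma copper carrier ceruloplasmin, differed most, by 1.65 in E16 testis minus ovary (adjusted p = 0.068), 1.68 in E16 minus E13 testis (adjusted p = 0.0884) and 1.20 in cultured minus fresh E13 testis (adjusted p = 0.216), while its 2 dimmer probe sets differed less in each and one was lower in culture (-0.49, adjusted p = 0.776). Of 8 iron genes, 2 were lower in E16 testis than in E16 ovary, 0 passed in E16 against E13 testis and 1 was higher in culture. Tfrc, the receptor by which cells take up transferrin iron, had 532 ± 14.6 in E16 testis and 1092 ± 131 in E16 ovary (-1.01, adjusted p = 0.0229), and Slc40a1, which exports iron, had 81.7 ± 18.5 in E16 testis and 201 ± 61.1 in E16 ovary (-1.14, adjusted p = 0.0365); the dimmer probe sets of both did not pass. Hmox1, which breaks down heme and is induced by oxidants and by cadmium, rose in culture, where Mt2A fell. It averaged 174 ± 12.4 in cultured against 69.3 ± 20.8 in fresh E13 testis (1.18, adjusted p = 0.0298 by limma). Whether oxidants or metals acted on Mt2A in culture was not tested. In E16 minus E13 testis Hmox1 differed by 0.62 (adjusted p = 0.305 by limma).

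Of 22 oxidative stress genes, Sod3, the extracellular superoxide dismutase, was higher in E16 testis, at 140 ± 20.4, than in E16 ovary, at 56 ± 16.1 (1.13, adjusted p = 0.0148 by limma), and than in E13 testis, at 62.7 ± 0.42 (0.98, adjusted p = 0.0421). In culture 0 of the 22 passed; Gpx1, a glutathione peroxidase, differed most, by -1.46 (adjusted p = 0.0549). Of 15 glucocorticoid response genes, Hsd11b2, the enzyme that inactivates glucocorticoids, was higher in E16 testis, at 219 ± 33.4, than in E16 ovary, at 78.6 ± 6.93 (1.31, adjusted p = 0.0198). Errfi1, an inhibitor of the EGF receptor, fell to 69.1 ± 33.5 in E16 testis, against 218 ± 40.7 in E13 testis (-1.51, adjusted p = 0.0236), and to 79.6 ± 8.84 in cultured testis (-1.29, adjusted p = 0.0408). Medians of both lists lay between -0.12 and 0.18 in the 3 comparisons. Without the 4 arrays with discordant Xist, 0 genes of these lists passed in any of the 3 comparisons, in which only 14, 6 and 5 of all 15866 probe sets passed.

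**Figure D3:**
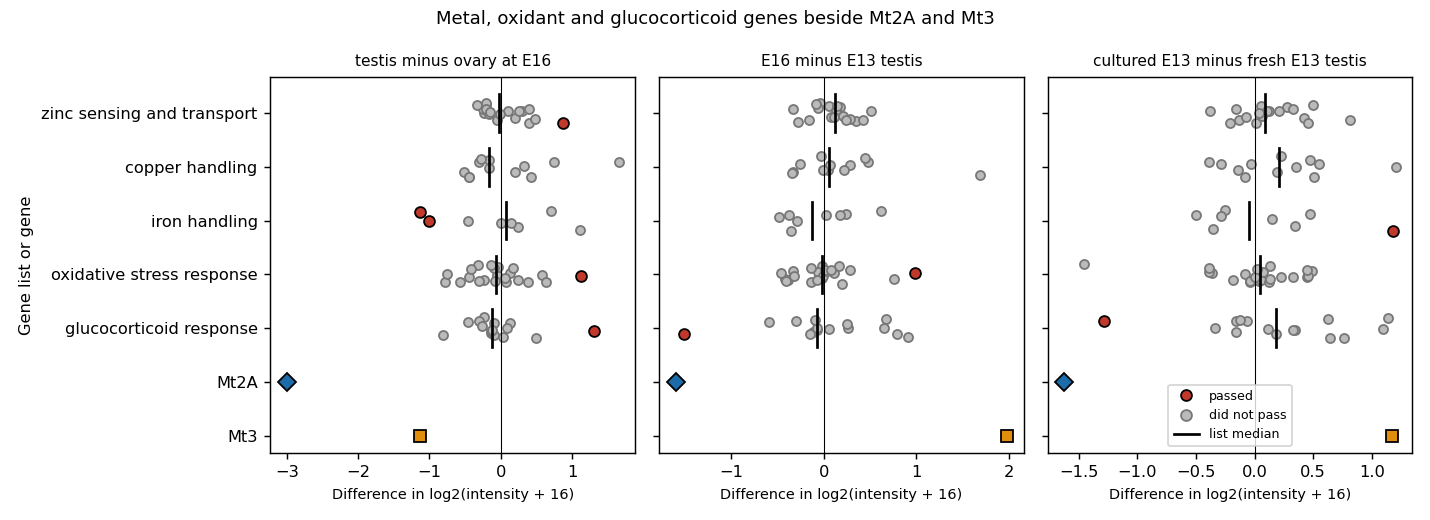
Differences in log2(intensity + 16) of the measured genes of 5 lists (points; red where adjusted p was under 0.05, black line at the list median) beside Mt2A (diamond) and Mt3 (square), in 3 comparisons, first-named minus second-named group. List medians lie between -0.17 and 0.21.

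The genes whose levels ran most like Mt2A were found by Pearson's r over the 14 arrays, among 4851 other genes with a mean intensity of at least 100. The arrays share groups, sex and chip series, so r describes this set and is no test. Podxl, a sialomucin of epithelial and vessel surfaces, came first (r = 0.964), followed by the keratin gene Krt19 (0.947), Lrrc42 (0.938), Them5 (0.933), the IGF carrier Igfbp2 (0.912), the Amh receptor Amhr2 (0.911), the phosphatase subunit Ppp2r2b (0.909) and Cnot1, the scaffold of a complex that shortens mRNA tails (0.901). Podxl read 204 and 217 in E16 testis and 718.2 and 918.5 in E16 ovary, and averaged 181 in cultured against 468 in fresh E13 testis. Its 2 dimmer probe sets were not alike (r = 0.125 and 0.273). Krt19 read 146.6 and 185.5 in E16 testis and 1064.7 and 1644.2 in E16 ovary, and 184.6 and 78.7 in cultured against 324.5 and 379.5 in fresh E13 testis.

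For Mt3 the likest genes were Psme1, a subunit of the proteasome activator (r = 0.941), the lysosomal protease gene Ctsh (0.897), Ecpas, a proteasome adaptor (0.891), Cisd1, an iron-sulfur protein of the mitochondrial surface (0.885), Ntpcr (0.883), Apip, an enzyme of methionine salvage (0.882), Tmem176b (0.878) and the aldehyde reductase gene Akr7a2 (0.873). Psme1 averaged 545 in E13, 792 in E14 and 1188 in E16 ovary, and 550 in E13, 614 in E14 and 856 in E16 testis. None of the 8 genes was also among those most like Mt2A.

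**Figure D4:**
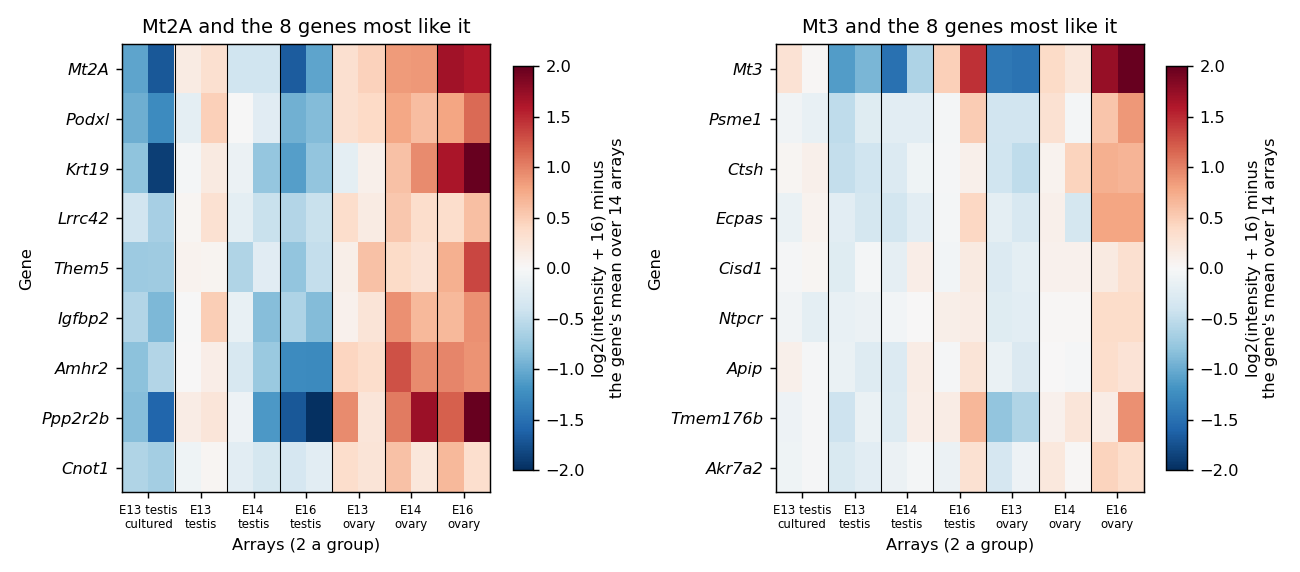
Levels of Mt2A and Mt3 and of the 8 genes most like each, per array, as log2(intensity + 16) minus the gene's own mean over the 14 arrays; colours end at -2 and 2, and each group has replicate 1 left of replicate 2. The genes under Mt2A are low in cultured and E16 testis and high in E14 and E16 ovary, while those under Mt3 are highest in E16 ovary.

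Markers of several cell types moved together with these genes, and their part in the results was not tested. The summed intensity of 9 measured genes of surface epithelium and mesothelium was 1477 to 1521 in E16 testis and 2516 to 3087 in E16 ovary, and 1175 to 1513 in cultured and 1900 to 2034 in fresh E13 testis, which is the direction of Mt2A. Within this list Krt19 averaged 166 in E16 testis and 1354 in E16 ovary (-2.89), whereas the list's median difference was -0.02 (0.02 in cultured minus fresh E13 testis), and Krt18 was higher in testis (0.87, adjusted p = 0.0397 by limma). In culture the sum followed Wt1 (452 in cultured and 851 in fresh E13 testis) and Krt19 (132 and 352). The only gene of the list that passed there was Gpm6a, as higher in culture (1.06, adjusted p = 0.0306 by limma). The 9 mesonephros and kidney genes summed to 387 to 482 in E16 testis and 530 to 552 in E16 ovary, and to 416 to 484 in cultured and 665 to 747 in fresh E13 testis, with 0 of 9 passing by limma in either. At E16 the sums followed Emx2, a factor of the early urogenital ridge (104 in testis and 254 in ovary), while the list's median difference was 0.20, towards testis. The 8 Leydig cell genes ran the other way, with sums of 4428 to 8513 in E16 testis, 176 to 261 in E16 ovary, 3624 to 4794 in cultured and 250 to 293 in fresh E13 testis. The 7 Sertoli cell genes summed to 3548 to 3669 in E16 testis and 1423 to 1519 in E16 ovary, and to 3196 to 3856 in cultured and 807 to 1004 in fresh E13 testis. At E16, 5 of them passed as higher in testis than in ovary, and Ptgds passed as lower (-1.16, adjusted p = 0.0467 by limma).

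Other lists moved less evenly with Mt2A. The 7 adrenal genes summed to 116 to 123 in E16 testis and 58.5 to 96.8 in E16 ovary, and to 545 to 845 in cultured and 194 to 197 in fresh E13 testis. The 6 pre-granulosa and ovary genes had a median difference of -1.12 in E16 testis minus ovary, the direction of Mt2A, and Fst and Lgr5 passed as lower in testis. Their sums overlapped between E16 testis (2928 to 3317) and E16 ovary (2433 to 3034), since most of the sum was Ctnnb1 (2777 in testis and 1629 in ovary). The 10 macrophage genes summed to 600 to 634 in E16 testis and 631 to 705 in E16 ovary (median difference 0.14, towards testis), and to 759 to 850 in cultured and 568 to 578 in fresh E13 testis. In this list only Cd74 passed in E16 testis minus ovary, as lower (-1.595, adjusted p = 0.0212 by limma). In cultured minus fresh E13 testis Cd74 passed as lower (-1.49, adjusted p = 0.0343) and Lyz2 as higher (1.14, adjusted p = 0.0313). The 5 red blood cell genes differed widely within cultured testis, at 1002 and 9194. The 10 neuron and glia genes, of interest since Mt3 is known from brain, summed to 308 to 417 in E16 testis and 532 to 668 in E13 testis, where Mt3 was higher at E16. Of 8 germ cell markers only Kit was measured, and it read 13.2 to 88.8 over all arrays. No measured marker was at 0 in any array.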

How the data were processed

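The deposited files hold linear intensities, 1 value for each probe set on each array. How the authors summarised probes is not given in the sources used here; in the deposited values each array had a mean of 125.03 after trimming 2% at each end, so the arrays had been scaled alike. Of 15923 probe sets, 57 controls were left out. The platform annotation gave 12783 of the rest 1 symbol, 312 several and 2771 none; 12748 were found in the RefSeq table (GRCr8), which changed 0 symbols.

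Values were analysed as log2(intensity + 16). Using limma 3.58.1 under R 4.3.3, 1 model with 7 groups took in the 14 arrays (lmFit, eBayes; 7 residual and 4.16 prior degrees of freedom) and adjusted by Benjamini-Hochberg over 15866 probe sets, with 0.05 as the threshold. The fit was tested on simulated data. Of 12 comparisons, the 5 that compare testis with ovary or hold E16 ovary were described for both genes. The choice of Mt2A rested on those values, and what chose Mt3 is not stated. For Mt2A, E16 minus E13 testis was also described only, although it had been planned as a test. The remaining tests of Mt2A share fresh arrays with its choice, so their p-values are not independent of it. The members and lists were chosen with earlier results of these data known. P-values measure the spread between these pools only. Named were both members, Mt1, up to 3 passing genes per direction, list and comparison (otherwise the largest difference), and the 8 genes most like each member; where several probe sets carry a gene's symbol, the brightest stands for it. Alternatives were offsets of 1 and 64, quantile normalization, a dim-probe filter, blocks for chip series, chip batch and replicate number, and leaving out arrays.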

Additional observations from a re-analysis of the deposited data

Results flagged for a closer look

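Mt2A moved in opposite directions in the 2 sexes at each step, with every later array below every earlier one in testis and above it in ovary. The share of all probe sets that separate in this way is not given, and the single steps that were tested did not pass. The difference between the sexes was not tested here, since the gene had been chosen for it. For E14 minus E13 the change was -0.64 in testis and 0.47 in ovary, a difference between them of -1.11 (log2). For E16 minus E14 it was -0.97 in testis and 0.78 in ovary, a difference of -1.75, and for E16 minus E13 it was -1.60 in testis and 1.25 in ovary, a difference of -2.85.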

How the results depend on the processing

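The 12 differences of each gene were recomputed under 22 alternatives; 520 of 528 values kept their sign, and the 8 that turned belong to Mt2A in cultured minus fresh E16 testis and to Mt3 in E14 minus E13 testis, neither of which passed. Without the 4 arrays with discordant Xist, Mt2A was -2.03 (adjusted p = 0.11 by limma) in cultured minus fresh E13 testis and -1.69 in E16 minus E13 testis, and Mt3 was 1.88 in E16 minus E13 testis (adjusted p = 0.161) and -0.92 in testis minus ovary at E14; fewer arrays were fitted there. With an offset of 1, Mt3 was 2.47 in E16 minus E13 testis (adjusted p = 0.0579), 4.42 in E16 minus E13 ovary and -1.86 in testis minus ovary at E14; with an offset of 64 these were 1.26 (adjusted p = 0.0537), 2.38 and -0.77, and Mt2A in testis minus ovary at E16 was -2.70. Mt3 in E16 minus E14 testis passed at 2.02 with only probe sets whose highest group mean is at least 100 (adjusted p = 0.0309), with chip series as a block (2.02, adjusted p = 0.0459), with the replicate block (2.02, adjusted p = 0.0434) and with a random block for chip batch (1.99, adjusted p = 0.0414); apart from the filter, which tests fewer probe sets, the cause was not tested. Leaving out 1 array at a time, Mt2A ranged from -1.94 to -1.30 in cultured minus fresh E13 testis, from -1.90 to -1.30 in E16 minus E13 testis and from -3.30 to -2.70 in testis minus ovary at E16. Mt3 ranged from 1.49 to 2.47 in E16 minus E13 testis, from 1.53 to 2.51 in E16 minus E14 testis, from -1.80 to -0.92 in testis minus ovary at E14 and from -1.61 to -0.64 in testis minus ovary at E16. Same-numbered arrays of 2 groups deviated together with r of -0.05 to 0.53 (median 0.17 over 21 pairs of groups, across probe sets), and 15 of the 21 were over 0.1. The labels do not say what the numbers mean, but 6 of 7 replicate 2 arrays and 0 replicate 1 arrays were in chip series 1, so number and chip series largely coincide, and a pairing was not taken as given; the replicate block changed no other call of Mt2A or Mt3. No detection calls came with the intensities, and the E13 readings of Mt3 are close to the offset.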

Other observations

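Mt2A and Mt3 lie next to each other in the RefSeq gene order, between Mt1 and Mt4, of which Mt4 was not analysed here. The nearest other genes with a probe set, taken from the 5 genes on either side of each member, were Slc12a3, the nucleoporin gene Nup93, Bbs2 and the mRNA cleavage factor gene Nudt21; this choice was made after seeing the data. None of these 4 genes passed in any of the 12 comparisons by limma, in which 0% to 1.74% of all probe sets passed. Their smallest adjusted p by limma was 0.354, with differences between -0.41 and 0.42. Slc12a3 had group means of 2.2 to 8.85, all below the offset of 16, where a change is hard to see. Nup93 averaged 538 ± 54.3 in E16 testis and 652 ± 62.2 in E16 ovary (SD, n = 2), and 433 ± 45.3 in cultured and 530 ± 31.8 in fresh E13 testis. Bbs2 averaged 62.6 ± 0.85 in E16 testis and 72.6 ± 3.68 in E16 ovary.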
